A study of Rattus norvegicus with 3 samples.

Results

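Complex I, or NADH dehydrogenase, is the entry point of the respiratory chain, and its nuclear-encoded subunits were examined here in rat kidney. Members were all genes whose symbol starts with Ndufa, Ndufb, Ndufc, Ndufs or Ndufv and to which a probe of the array could be matched through its RefSeq accession, with the assembly factors named Ndufaf kept apart. This gave 32 genes with 40 probes, among 14183 genes tested in all, of which 8912 have a symbol. The others are accessions or probes without a matched symbol, each counted as a gene, and some of them may belong to the same gene. A probe was kept where it was well above background in the same colour on all 3 arrays. All 32 genes passed through at least 1 probe, and 39 of the 40 probes passed. The second probe of Ndufs4 was the only one left out, being well above background in green on 0 arrays and in red on 1. Of 37 subunits listed as core or accessory, 30 were tested (7 of 7 core and 23 of 30 accessory). No probe was matched to Ndufa3, Ndufa7, Ndufa8, Ndufa13, Ndufb1, Ndufc1 or Ndufs6, nor to Ndufa4l2, and these genes were not analysed here. The mitochondria-encoded subunits were not analysed here either. The other 2 members, Ndufa4 and Ndufa10l1, were counted apart. Ndufa4 is today assigned to cytochrome c oxidase, and Ndufa10l1 is a near copy of Ndufa10, so that probes of the pair may share signal.

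The samples were kidney RNA of male Sprague-Dawley rats, 5 weeks old in the labels. By the methods text this was the age at purchase. Acclimation and treatment came after it, so the rats were older when the kidneys were taken. The G200 group drank water with 200 ppm GABA for 3 weeks, and the negative control drank water without GABA. On each of 3 Agilent arrays, control RNA carried Cy3 (green) and G200 RNA carried Cy5 (red). The dyes were not exchanged on any array, so the effect of GABA and a difference between the dyes cannot be told apart. The RNA came from bulk kidney, labelled as a non-tumor region, and fewer cells of a type and less RNA per cell cannot be told apart in such samples. All values are log2 ratios of G200 over control after loess within each array, and a value above 0 means more signal in G200.

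Complex I takes electrons from NADH, passes them along a flavin and a chain of iron-sulfur clusters to ubiquinone, and pumps protons across the inner mitochondrial membrane. Core subunits carry the cofactors and the catalytic steps, while accessory subunits surround them and are needed for assembly and stability. In the kidney, the proximal tubule and the thick ascending limb are rich in mitochondria, which power the reabsorption of salt and solutes.

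The control channels were compared between the arrays first. Squared differences from array to array, divided by what replicate spots would give, came to 0.875 to 1.14 in green (1111 probes having 5 or more spots). In red they came to 6.05 to 16.2 (1087 probes). In these probes the green channels thus differed about as little as replicate spots do. Probes with fewer spots, as most members have, were not part of this check. Among them the control of Ndufa1 read 11.04, 11.94 and 11.91 in log2 intensity on arrays 1, 2 and 3. That of Ndufa2 read 10.27, 10.21 and 10.22. The control was counted as 1 sample. Testing each ratio against 0 therefore leaves the control's own spread out. The labels give a number to each rat but do not say that the control RNA of the arrays came from separate animals. The p-values measure only the spread between these samples, which may be technical, and the number of arrays limits the precision.

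The kidney label was checked against marker genes. Of the proximal tubule markers 9 of 10 were well above background, with all 4 of the thick ascending limb, all 4 of principal cells and all 4 of podocytes. In the thick ascending limb Umod was higher in G200 at 0.87 ± 0.10 (n = 3, SD; limma, adjusted p = 0.00101) and Cldn16 at 0.41 (limma, adjusted p = 0.00705), and Kcnj1 and Slc12a1 were not called, at 0.09 and -0.18. The median of the 4 thick ascending limb genes was 0.25. Of the 9 proximal tubule genes Cubn (0.45), Aqp1 (0.41) and Lrp2 (0.26) were called higher and Miox (-0.25) lower, around a median of 0.06. The highest of them, Slc5a2, was not called and rested on array 1 (1.59, 0.16 and 0.22). The distal convoluted tubule was represented by Slc12a3 alone, as Pvalb and Calb1 did not pass and no probe was matched to Trpm6. Principal cells had a median of 0.19 (Aqp2 -0.30 to Avpr2 0.21) and podocytes of 0.32 (Synpo -0.001 to Nphs1 0.41). The 3 intercalated cell genes went both ways, with Slc4a1 called lower at -0.68 and Atp6v0d2 called higher at 0.53 around a median of 0.31. In endothelium (median -0.10) Pecam1 was called lower at -0.56 and Emcn was at 0.14, and in stroma (median 0.05) Dcn was called higher at 1.09 and Col1a1 was at -0.12. In macrophages (median -0.11) C1qb was called lower at -0.43 and C1qa was at 0.11, and of the 4 lymphocyte genes Ptprc alone passed, at 0.10. Markers of the liver were present too. All 8 liver genes were well above background and lower in G200, with medians of -1.88, -3.58 and -4.96 on arrays 1, 2 and 3, and Apoc1 and Apoa1 marked the ends at -4.05 and -2.45. Liver cells are also rich in complex I, and the part of these genes in the complex I ratios was not tested.

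Of the 32 complex I genes, 12 were higher in G200 and 5 were lower at an adjusted p under 0.05 (limma, Benjamini-Hochberg over all genes), whereas all 32 have positive ratios with median centring or without dye normalization. Over all genes tested, 11.55% were called higher and 25.93% lower. Of the members, 37.5% were called higher and 15.6% lower. The complex I probes are bright, with 30 of 32 genes among the 3546 brightest genes by mean log2 intensity, of which 17.26% were called higher and 32.06% lower. With loess no member reached a 2-fold difference, whereas 10 members did with median centring and 26 without dye normalization. Of all 14183 genes, 576, 1044 and 3207 did in these 3 settings. The members ranged from -0.58 in Ndufv3 to 0.71 in Ndufs1, and their median was 0.08 (0.06, 0.08 and 0.11 on arrays 1, 2 and 3), beside -0.05 for all genes and -0.07 for the brightest genes. The falls are lost in some scalings. If each array is centred on its median instead, or the dyes are not normalized, 27 or 31 members, all 12 among them, are called higher and 0 lower, and the median of all genes moves to 0.27 or 0.62. Of all genes, 35.2% are then called higher and 8.79% lower with median centring, and 56.5% and 2.14% without dye normalization. Relative to the brightest genes, the median of the members was 0.15 higher with loess and 0.21 higher with median centring. After normalization between arrays, all 3 G200 channels lay above all 3 control channels in 12 members, against 16.62% of all genes, and below them in 5 members, against 32.33% of all genes. These are not all the called genes, since Ndufab1, Ndufb3 and Ndufb4 were apart without a call, and the called Ndufb11, Ndufa11 and Ndufs5 overlapped. As the control was counted as 1 sample, its 3 channels are repeats here and in the comparisons of single genes below. The counts of all genes and of members also depend on single arrays and on the test. Without replicate 3 there were 2 higher and 2 lower members, with 1.29% of all genes higher and 10.1% lower, and the members still called were Ndufs1, Ndufa2, Ndufb10 and Ndufv3. Without replicate 1 there were 5 and 4 members, with 6.11% and 18.8% of all genes, and Ndufb11, Ndufa11, Ndufs8, Ndufa9, Ndufb5, Ndufb9, Ndufa12 and Ndufs5 lost their call. The Feature Extraction log ratio gave 6 and 4 members, with 15.2% and 22.4% of all genes, and the calls lost were Ndufb11, Ndufa9, Ndufb5, Ndufv2, Ndufb9, Ndufa12 and Ndufs5. Testing the log ratios of each gene on its own variance left 0 members after adjustment, with 0% of all genes higher and 0.0141% lower.

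**Figure D1:**
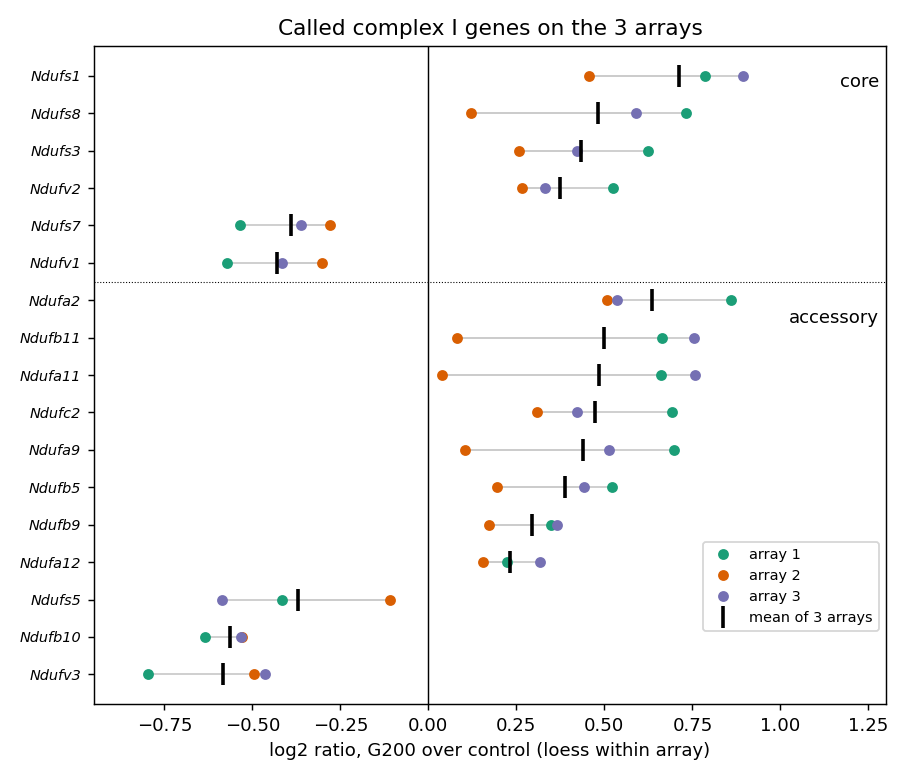
Log2 ratio of G200 over control for the complex I genes called with loess, 12 higher and 5 lower. Each coloured point is 1 array and the black bar is the mean of the 3 arrays, with core subunits at the top and accessory subunits below them. The means run from -0.58 in Ndufv3 to 0.71 in Ndufs1, and the 5 called falls turn positive with median centring, where they lie between 0.23 and 0.43, under the median of 0.65 of the 3546 brightest genes.

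Among the 7 core subunits, 4 were higher in G200 and 2 were lower. These are 57.1% and 28.6% of the core, beside 11.55% and 25.93% of all genes. The share of falls was thus near that of all genes. Ndufs1, the large iron-sulfur subunit of the NADH module, had log2 ratios of 0.79, 0.46 and 0.90 on arrays 1, 2 and 3. Its mean was 0.71 ± 0.23 (n = 3, SD; limma, adjusted p = 0.00396), which is 63.8% more signal in G200. Its control channel read 9.13, 9.70 and 9.74 in log2 intensity on the 3 arrays and its G200 channel 9.91, 10.15 and 10.63. The channels did not overlap, although both were lower on array 1 than on the other arrays.

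Ndufv2, which carries an iron-sulfur cluster beside the flavin, had ratios of 0.53, 0.27 and 0.33, with a mean of 0.37 ± 0.13 (n = 3, SD; limma, adjusted p = 0.0135). Its control channel was steady at 11.57, 11.56 and 11.57, and all G200 values lay above it, at 12.10, 11.83 and 11.90. Ndufs3, a quinone module subunit without a cluster of its own, had ratios of 0.62, 0.26 and 0.42 and a mean of 0.43 ± 0.18 (n = 3, SD; limma, adjusted p = 0.0125). In Ndufs3, too, the highest control value of 10.22 was under the lowest G200 value of 10.37. Ndufs8, which holds iron-sulfur clusters in the quinone module, had ratios of 0.73, 0.12 and 0.59, with a mean of 0.48 ± 0.32 (n = 3, SD; limma, adjusted p = 0.0265). Array 2 was low in Ndufs8, and the gap between the highest control value of 7.32 and the lowest G200 value of 7.39 was small. It is the dimmest member, and its mean was 0.86 with the Feature Extraction log ratio and 0.73 with a background offset of 0 in place of 50.

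Both falls among core subunits were called with loess and turned positive with median centring. Ndufv1, which binds NADH and the flavin, had ratios of -0.57, -0.30 and -0.41, with a mean of -0.43 ± 0.14 (n = 3, SD; limma, adjusted p = 0.00896). Its control channel read 12.85, 12.71 and 12.77 and its G200 channel 12.28, 12.40 and 12.36, so the groups did not overlap. Ndufs7, whose cluster hands electrons to ubiquinone, had ratios of -0.54, -0.28 and -0.36 and a mean of -0.39 ± 0.13 (n = 3, SD; limma, adjusted p = 0.0115). All 3 G200 values of Ndufs7 were under the lowest control value of 11.22. With median centring the mean was 0.37 in Ndufv1 and 0.35 in Ndufs7, in both cases above the 0.27 of all genes and under the 0.65 of the brightest genes. The NADH module thus held a rise in Ndufs1 and Ndufv2 beside a fall in Ndufv1 under loess, and with median centring all 3 were above 0.

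Accessory subunits also moved in both directions. Of the 23 tested, 8 were higher, 3 were lower and 12 were not called. Over all genes 11.55% were called higher and 25.93% lower. The accessory share of rises was thus above that of all genes and the share of falls under it. Ndufa2, an accessory subunit of the NADH module, had the largest mean ratio among these 23, with 0.86, 0.51 and 0.53 on arrays 1, 2 and 3. Its mean was 0.63 ± 0.20 (n = 3, SD; limma, adjusted p = 0.00441), and all G200 channels were above the control channels. Ndufc2, a subunit of the membrane arm, had ratios of 0.69, 0.31 and 0.42 and likewise no overlap (limma, adjusted p = 0.0108).

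Ndufb11 and Ndufa11, both in the membrane arm, were called higher on the strength of 2 arrays. Ndufb11 had ratios of 0.66, 0.08 and 0.76, with a mean of 0.50 ± 0.37 (n = 3, SD; limma, adjusted p = 0.0322). Ndufa11 had ratios of 0.66, 0.04 and 0.76, with a mean of 0.48 ± 0.39 (n = 3, SD; limma, adjusted p = 0.0411). In both genes the G200 value of array 2 fell among the control values. The study identified Ndufa9 on its gels as a protein raised in G200. Ndufab1 was not among its identified proteins and appears only in its list of enriched pathways. The ratios here are of RNA and were not compared with protein amounts. Ndufa9, the nucleotide-binding subunit of the quinone module, had ratios of 0.70, 0.10 and 0.51. Its mean was 0.44 ± 0.30 (n = 3, SD; limma, adjusted p = 0.0314), with the lowest G200 value of 8.51 just above the highest control value of 8.48. The call of Ndufa9 was lost with the Feature Extraction log ratio (limma, adjusted p = 0.0709), without replicate 1 (0.0845) and without replicate 3 (0.163). Ndufab1, the mitochondrial acyl carrier protein, had ratios of 0.23, 0.18 and 0.12 and was not called (limma, adjusted p = 0.0804). The other accessory rises were Ndufb5 at 0.39, Ndufb9 at 0.29 and Ndufa12 at 0.23, each above 0 on all 3 arrays.

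The called falls among accessory subunits were Ndufv3, Ndufb10 and Ndufs5, and each was above 0 with median centring (0.23, 0.23 and 0.43). In that setting Ndufv3 and Ndufb10 were still under the median of all genes (0.27), and all 3 were under that of the brightest genes (0.65). Ndufv3, a small subunit of the NADH module, had ratios of -0.80, -0.49 and -0.46 with loess and a mean of -0.58 ± 0.18 (n = 3, SD; limma, adjusted p = 0.00500). Ndufb10, in the membrane arm, had closely spaced ratios of -0.63, -0.53 and -0.53, with a mean of -0.56 ± 0.06 (n = 3, SD; limma, adjusted p = 0.00243). In Ndufv3 and Ndufb10 all G200 channels were below all control channels. Ndufs5, a membrane arm subunit on the side of the intermembrane space, had ratios of -0.42, -0.11 and -0.58 (limma, adjusted p = 0.0329). Its groups overlapped, since the control channel itself ran from 12.42 on array 1 to 13.08 on array 3.

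Promoters of the members were read to show what the genes share in sequence. RefSeq promoters (build GRCr8) were matched for 29 of the 32 members, and the 250 bases before the start were searched on both strands for CCGGAAG (the core of the GABPA motif) and AAGATGGC (the core of the YY1 motif). Among all 33469 promoters of this length, 7.27% held the former and 1.63% the latter. Among the members the GABPA letters were found in 6 of 29 and the YY1 letters in 0 of 29. The GABPA letters were in 3 of 11 promoters of higher members, 0 of 5 of lower members and 3 of 13 of members without a call. These counts by direction are incomplete, since a motif of NRF1, left out here, was found in members of both directions. A match is a run of letters and not a shown binding site.
The largest rise and the largest fall of the core (Ndufs1 and Ndufv1) and of the accessory subunits (Ndufa2 and Ndufv3) are printed, 5′ to 3′ on the strand of the gene, with GABPA letters in capitals. Their positions in GRCr8 are chr9:72073606-72073855 on the minus strand for Ndufs1, chr1:210734892-210735141 on the minus strand for Ndufv1, chr18:28631885-28632134 on the minus strand for Ndufa2 and chr20:9613536-9613785 on the plus strand for Ndufv3.
Ndufs1: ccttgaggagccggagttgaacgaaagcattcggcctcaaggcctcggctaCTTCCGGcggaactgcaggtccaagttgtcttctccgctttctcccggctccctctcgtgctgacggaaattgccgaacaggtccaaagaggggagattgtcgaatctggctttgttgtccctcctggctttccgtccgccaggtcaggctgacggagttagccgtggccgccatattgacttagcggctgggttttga
Ndufv1: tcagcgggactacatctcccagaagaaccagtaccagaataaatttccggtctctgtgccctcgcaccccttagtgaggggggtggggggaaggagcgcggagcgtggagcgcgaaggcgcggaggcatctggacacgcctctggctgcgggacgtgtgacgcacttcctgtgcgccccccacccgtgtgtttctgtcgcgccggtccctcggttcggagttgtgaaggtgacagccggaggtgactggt
Ndufa2: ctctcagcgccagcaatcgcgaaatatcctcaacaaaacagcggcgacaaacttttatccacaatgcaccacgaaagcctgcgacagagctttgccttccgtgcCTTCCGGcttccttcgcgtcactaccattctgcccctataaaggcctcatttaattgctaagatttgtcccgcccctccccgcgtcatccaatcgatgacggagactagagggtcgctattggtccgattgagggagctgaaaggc
Ndufv3: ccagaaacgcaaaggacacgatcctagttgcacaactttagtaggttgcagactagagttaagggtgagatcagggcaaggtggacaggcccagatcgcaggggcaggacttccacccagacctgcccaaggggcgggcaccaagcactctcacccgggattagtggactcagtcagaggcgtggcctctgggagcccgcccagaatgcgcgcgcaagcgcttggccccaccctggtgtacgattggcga
Ndufs1 and Ndufa2 each hold 1 GABPA match, read on the opposite strand. Ndufv1 and Ndufv3 hold neither the GABPA nor the YY1 letters in this window, like most members of either direction.

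The 15 members without a call had means between -0.16 in Ndufb4 and 0.24 in Ndufb6, and adjusted p from 0.0780 to 0.891 in limma. Ndufa4 had ratios of 0.05, 0.18 and -0.13 and Ndufa10l1 of 0.02, -0.04 and -0.08. Ndufa10 itself had 0.01, 0.14 and -0.11. A missed threshold does not show that these genes did not differ.

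The called genes shared a pattern between the arrays. Array 2 held the smallest change in 12 of the 12 higher members and in 4 of the 5 lower ones. The same array held it in 65.5% of all genes called higher and 63.6% of all genes called lower. Probes printed 10 times on each array give the spread from spot to spot. For Ndufs3 the spots left after outlier removal ran from 0.57 to 0.72 on array 1, from 0.23 to 0.34 on array 2 and from 0.36 to 0.47 on array 3, with an SD between spots of 0.05, 0.04 and 0.04. The spots of the arrays did not overlap in Ndufs3, but in the other called genes among these probes some arrays did. In Ndufb9 the spots ran from 0.32 to 0.43 on array 1 and from 0.23 to 0.47 on array 3. In Ndufb5 they ran from 0.39 to 0.65 on array 1 and from 0.30 to 0.53 on array 3. In Ndufv2 they ran from 0.19 to 0.36 on array 2 and from 0.26 to 0.42 on array 3. The spots of Ndufb8 and Ndufa6 lay on both sides of 0.

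**Figure D2:**
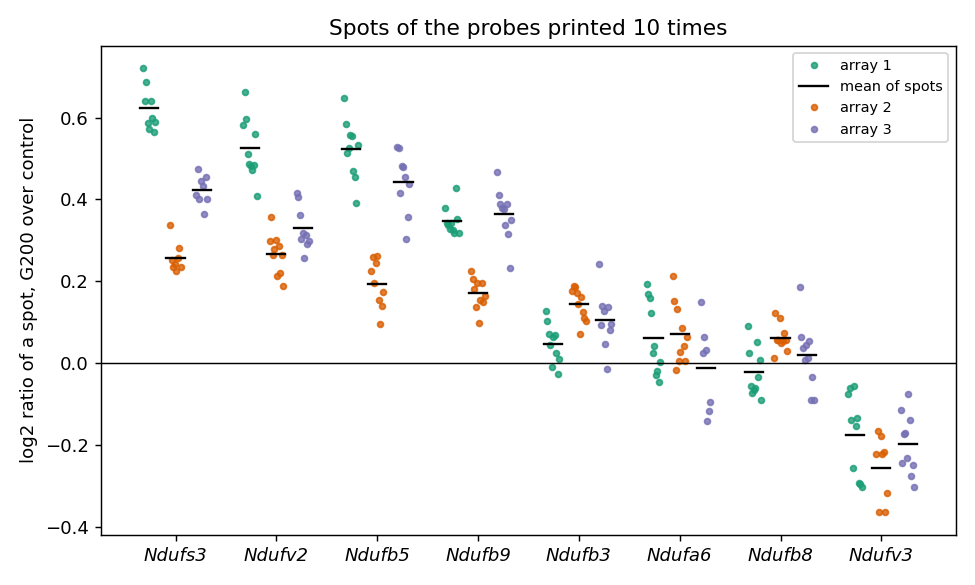
Log2 ratio of single spots for the 8 complex I probes printed 10 times, after loess and without outlier spots. Colours are arrays and black lines are the mean of the spots of an array. The Ndufv3 spots are those of its dimmest probe (mean -0.21), and not of the probe behind its call (mean -0.58). In Ndufs3, with means of 0.62, 0.26 and 0.42, the spots of the arrays do not overlap, while in the other genes those of some arrays do.

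Several probes passed for 6 members, and their means had both signs in 3 of them. In Ndufb4 the brightest probe read -0.18, -0.13 and -0.17, while the second read 0.19, 0.15 and 0.31 on the same arrays. In Ndufa10l1 the second probe had a mean of 0.38 against -0.03 for the brightest. In Ndufab1 the second probe, which was well above background in red on 1 array only, had a mean of -0.14. In Ndufv3 all 3 probes were negative, with means of -0.58, -0.36 and -0.21, and in Ndufb10 both were, with -0.56 and -0.22. In Ndufs5 the second probe had a mean of -0.06, and the call was lost when the probes of a gene were averaged (limma, adjusted p = 0.0966).

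Core and accessory subunits were compared by their medians, without a test. The core median was 0.53, 0.12 and 0.33 on arrays 1, 2 and 3, and the accessory median 0.06, 0.07 and 0.11. The core was higher on each array, by 0.46, 0.05 and 0.22, a mean difference of 0.25 ± 0.21 (SD, n = 3). This difference was close to its spread between arrays. It was 0.06 with median centring. The medians of the mean ratios turned their order there, from 0.37 for core and 0.10 for accessory subunits with loess to 0.88 and 0.89. The core holds 7 genes, so its median is the value of a single gene on each array. Called genes were 4 higher and 2 lower of 7 in the core, and 8 higher and 3 lower of 23 among accessory subunits. Of all genes tested, 11.55% were called higher and 25.93% lower.

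By position in the complex, the 8 tested genes of the NADH module had a median of 0.14, with 4 higher and 2 lower. The 6 of the quinone module, which passes electrons to ubiquinone, had a median of 0.25, with 3 higher and 1 lower. The 16 of the membrane arm, which pumps protons, had a median of 0.11, with 5 higher and 2 lower. Over all genes 11.55% were called higher and 25.93% lower, and with median centring no member was below 0.

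**Figure D3:**
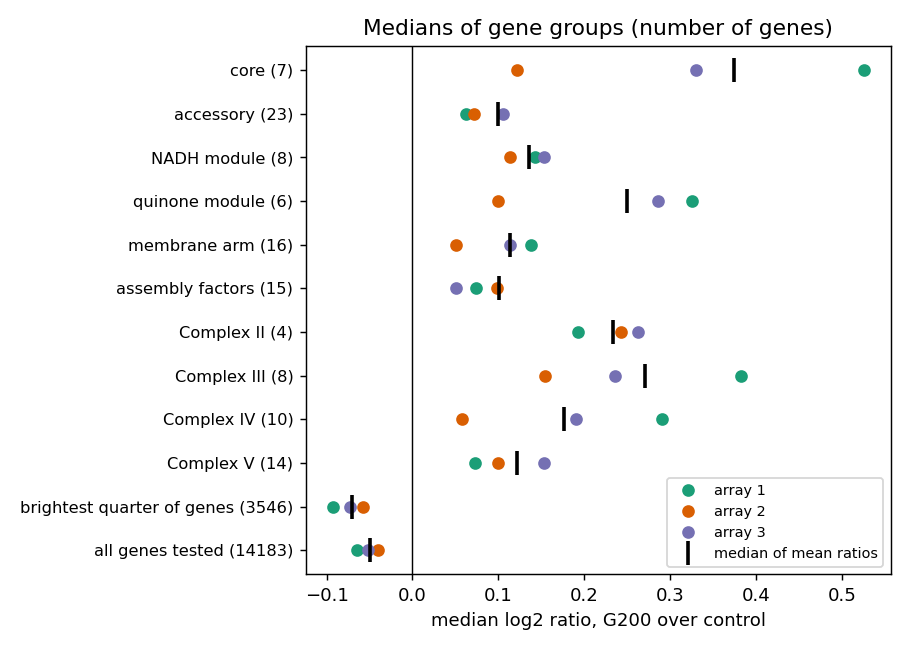
Median log2 ratio of gene groups on each array after loess, with the number of genes in brackets. Points are arrays and black bars the median of the mean ratios. The core subunits spread from 0.12 to 0.53 between arrays, while all genes tested lie near -0.05. With median centring the median of all genes moves to 0.27 and that of the complex I genes to 0.87.

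Assembly factors, which build the complex but are not part of it, were counted apart. Of 19 listed, 15 were tested, with 1 higher (6.67%), 2 lower (13.3%) and a median of 0.10, beside 11.55% and 25.93% of all genes, and the difference was not tested. Their median was 0.42 with median centring, 0.77 without dye normalization and 0.21 with the Feature Extraction log ratio. Tmem126b, a factor for the membrane arm, was highest at 0.71, 0.26 and 0.47 (mean 0.48 ± 0.22, n = 3, SD; limma, adjusted p = 0.0123). Ecsit, which acts in the same assembly complex, was lowest at -0.49, -0.25 and -0.34 (limma, adjusted p = 0.0140). Of the 6 Ndufaf genes tested, Ndufaf3 was lower at -0.23 ± 0.06 (n = 3, SD; limma, adjusted p = 0.0382), and the others were not called. Ndufaf2 and Ndufaf6 had no matched probe.

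The other respiratory complexes are given for comparison, with no test of the difference from complex I and beside 11.55% of all genes called higher and 25.93% lower. Complex II had a median of 0.23 with 3 of 4 genes higher, from Sdhb at -0.01 to Sdha at 0.38. Complex III had a median of 0.27 with 4 higher and 2 lower of 8, from Uqcr11 at -0.52 to Uqcrfs1 at 0.57. Complex IV had a median of 0.18 with 4 higher and 1 lower of 10, from Cox4i1 at -0.54 to Cox6c at 0.52. Complex V had a median of 0.12 with 4 higher and 1 lower of 14, from Atp5mc1 at -0.45 to Atp5f1c at 0.86. Among 10 genes of general mitochondrial content 4 were higher and none lower, with a median of 0.18, from Cs at -0.21 to Slc25a5 at 0.52. Of 8 regulators of respiratory genes, Gabpa was highest at 0.34 and Gabpb1, which encodes its partner, lowest at -0.22, and 2 were higher and 1 lower in limma. With median centring the medians were 0.99 for complex II, 0.99 for complex III, 1.00 for complex IV and 0.95 for complex V, beside 0.87 for complex I.

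**Figure D4:**
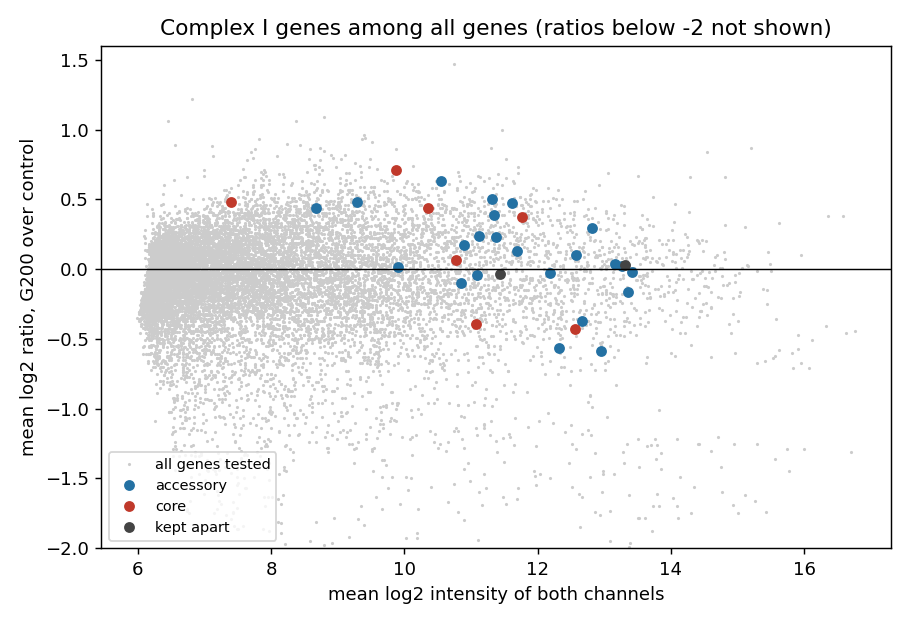
Mean log2 ratio against mean log2 intensity of both channels after loess. Grey points are all 14183 genes tested, and coloured points are core, accessory and separately counted complex I genes. The complex I genes lie at higher intensities than most genes, 30 of 32 among the 3546 brightest, and on both sides of 0 with loess.

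**Figure D5:**
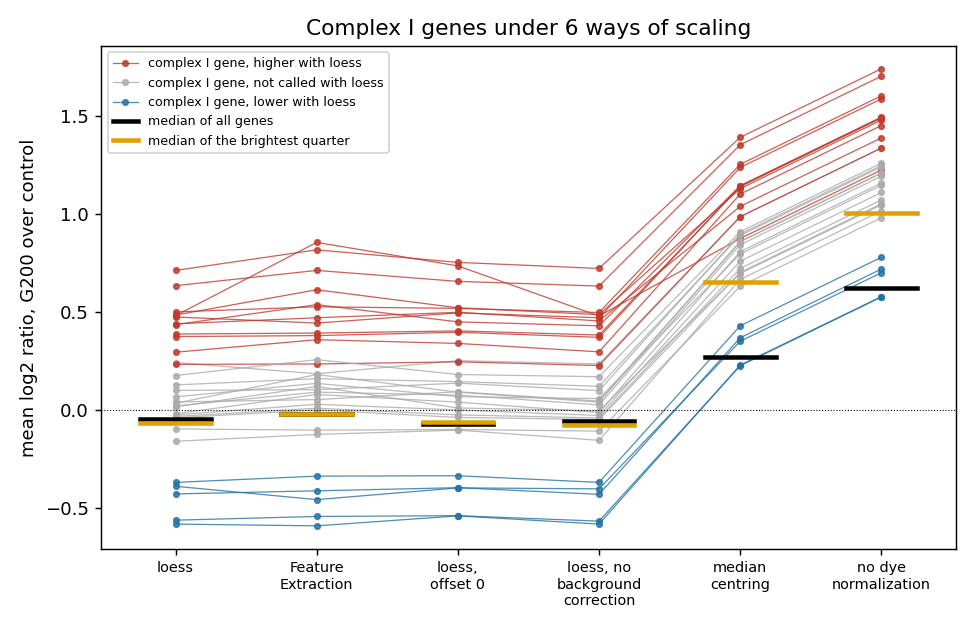
Mean log2 ratio of the 32 complex I genes under 6 ways of scaling, 1 line per gene, coloured by the call with loess. Black bars are the median of all genes and yellow bars that of the 3546 brightest genes. With median centring or no normalization between the dyes all 32 genes are above 0, the 5 genes called lower with loess among them, and the median of the members stays 0.21 above that of the 3546 brightest genes.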

How the data were processed

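The authors deposited Agilent Feature Extraction tables of 3 arrays (version 11.5.1.1 in the file headers, 9.3.2.1 in the processing notes), with the median intensity of each spot and its local background before correction. The deposited log10 ratio, made by the authors' software after background subtraction and dye normalization, served as an alternative. Here, limma 3.58.1 in R 4.3.3 corrected the background (normexp, offset 50) and normalized the dyes by loess. Outlier and control spots were left out, spots of a probe averaged, and the brightest probe stood for a gene. Of 30367 probes, 18355 (60.4%) were matched to RefSeq symbols (GRCr8), and 15651 passed the background filter. The share of spots well above background was 59.8%, 62.7% and 62.3% (green) and 63.0%, 56.6% and 61.0% (red) by array. Each gene's ratios were compared with 0 in limma (lmFit, then eBayes; two-sided), and p-values were adjusted by Benjamini-Hochberg across the array. The array pairs the channels and is the block of this test. Named are the called core subunits, Ndufa9, Ndufab1, Ndufa4, the 5 highest and 5 lowest members, members with disagreeing probes, and the ends of each other list. Ndufc2, Ndufb5, Ndufb9, Ndufa12, Ndufa10, Ndufaf3 and the genes of the spot comparison were added with their values in view. Members and lists were chosen with earlier results of these data known, and the promoter motifs after the ratios were seen. A motif of NRF1 was also searched and found in members of both directions. It is left out, as its length bars its letters from a script here. The motif counts by direction are therefore incomplete. The tests were tested on simulated ratios. A first limit on the share of changed genes recovered was not met. The simulated variances were then redrawn from limma's prior, and limits on bias, sign and false calls took its place.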

Additional observations from a re-analysis of the deposited data

How the results depend on the processing

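The counts of 12 higher and 5 lower complex I genes were the same with no background correction, with both channels required above background, with no filter on dim probes and with the robust variance model. In this order, 12.3%, 11.6%, 6.64% and 12% of all genes were called higher, and 27.5%, 23.3%, 14.3% and 25.7% lower. Averaging the probes of a gene gave 12 and 4, and an offset of 0 gave 8 and 4. Of all 14183 genes, 1636 were then called higher and 3642 lower with averaging, and 1524 and 3453 with an offset of 0. In the main setting these were 1638 and 3678. The scaling decided the direction of the falls. The 12 rises stayed called with median centring and without dye normalization, but both settings move the median of all genes upward. Rises that stay called there therefore do not show that they are firmer than the falls. With the Feature Extraction log ratio 6 of the 12 rises and 4 of the 5 falls stayed called. Without replicate 1 these were 5 and 4. With median centring 27 members were higher and 0 lower, and without dye normalization 31 and 0. In these settings the median of all genes was 0.27 and 0.62, and 80.0% and 96.3% of all calls were higher in place of 30.8%. The median of the members was 0.87 and 1.22 in these settings, 0.15 with the Feature Extraction log ratio and 0.11 with an offset of 0. The Feature Extraction log ratio left 6 higher and 4 lower members. The cause was not tested. Members whose mean changed sign were, with median centring, Ndufa5 0.81, Ndufb2 0.76, Ndufa10l1 0.72, Ndufs4 0.70, Ndufb7 0.63, Ndufb4 0.67, Ndufs5 0.43, Ndufs7 0.35, Ndufv1 0.37, Ndufb10 0.23 and Ndufv3 0.23. With no normalization they were Ndufa5 1.16, Ndufb2 1.11, Ndufa10l1 1.07, Ndufs4 1.05, Ndufb7 0.98, Ndufb4 1.02, Ndufs5 0.78, Ndufs7 0.70, Ndufv1 0.72, Ndufb10 0.58 and Ndufv3 0.58. With the Feature Extraction log ratio they were Ndufa5 0.078, Ndufb2 0.028 and Ndufa10l1 0.008. Averaging probes turned Ndufa10l1 0.17 and Ndufb4 0.027, an offset of 0 turned Ndufa5 0.039, and no background correction turned Ndufa10 -0.005. When an array was left out, the mean ran from -0.077 to 0.021 in Ndufa5, from -0.04 to 0.115 in Ndufa4, from -0.001 to 0.04 in Ndufb8, from -0.049 to 0.077 in Ndufa10 and from -0.048 to 0.012 in Ndufb2, which includes a change of sign in each.

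Leaving out an array gave 2 to 12 higher and 2 to 5 lower members, with fewer samples in each fit. Without replicate 3 there were 2 and 2, and without replicate 1 there were 5 and 4. The median of the members ran from 0.08 to 0.10, and the difference between core and accessory subunits from 0.14 to 0.34. A t-test of the log ratios against 0 gave 11 of 32 members at an unadjusted p under 0.05, beside 4475 of 14183 genes. After adjustment it gave 0 higher and 0 lower members. The methods' t-test with unequal variances on the 2 channels had no replicate block for the array. It gave 9 of 32 members at an unadjusted p under 0.05, beside 4211 of 14183 genes. After adjustment it gave 0 higher and 0 lower members, with 0.444% and 2.04% of all genes. At an unadjusted p under 0.05 limma had 20 members, beside 6964 of 14183 genes. The mean difference between core and accessory subunits fell from 0.25 to 0.06 with median centring or without dye normalization, and the medians of the mean ratios turned their order. Of the 39 member probes kept, 38 were well above background in both colours.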
